A study of Mus musculus with 12 samples.

Results

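The genes described here are 10 heat shock genes of mouse oocytes, taken by symbol from the deposited expression table: the transcription factors Hsf1 and Hsf2, the HSP90 genes Hsp90aa1 and Hsp90ab1, the HSP70 gene Hspa8, the HSP110 genes Hspa4 and Hsph1, the J-domain genes Dnaja1 and Dnajb1, and the chaperonin partner Hspe1. All 10 were found, each on a single line, among 25162 genes with usable values, and all 10 were among the 10110 genes whose mean over the columns was at least 1 FPKM. Oocytes labelled KO carried an oocyte deletion of Rnaseh1, the gene of RNase H1, which digests RNA paired with DNA, and their columns are headed Rnaseh1oo-/-. The controls are labelled WT, and their columns are headed Rnaseh1fl/fl, so they carried the floxed allele. Each genotype was sampled at stages named NGO, GO and FGO, which in oocyte work commonly mean non-growing, growing and fully grown. The sources used here do not give the Cre driver, the strain or the age of the mice. The labels list 12 samples, 2 for each of the 6 groups, and each sample pooled 10 oocytes, received 100 pg of ERCC spike-in RNA and was read by Smart-seq2.

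The deposited values are FPKM, a level per transcript length, which the authors adjusted to the spike-in. There is 1 column per group and no value per sample. No difference given here therefore has a replicate check, no p-value or SD can be given, and the reads behind a value are unknown. For the same reason, no order can be given to genes or columns whose values lie close together. A gene is called higher or lower where its columns differed at least 2-fold, that is by 1 or more on the log2(FPKM + 1) scale, which understates the change of low genes. A spike-in adjustment can move a whole column at a time, and the sources used here do not give its formula. Each comparison was therefore repeated after rescaling. That means division of each column by the median, over genes, of its ratio to the genes' geometric means. The factors were 0.453, 1.22 and 2.26 for KO and 0.514, 1.29 and 1.31 for WT at NGO, GO and FGO. Of the KO to WT comparisons, rescaling moved the median difference of all genes most at FGO, to 0.02 in place of 0.72. Rescaling takes out any change shared by most genes of a column, including one in RNA per oocyte, which a spike-in can keep. A rescaled value therefore gives a gene's standing against the other genes and not its amount per oocyte. Rnaseh1 itself was listed at 10.8%, 11.2% and 27.6% of WT in the KO columns of NGO, GO and FGO, and at 12.3%, 11.8% and 16.0% after rescaling. All 10 oocyte markers examined reached 1 FPKM in every column.

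Chaperones bind unfolded or incompletely folded proteins and release them in cycles of ATP hydrolysis. HSP70 proteins take up clients that J-domain proteins bring them, exchange factors such as the HSP110 proteins reset them, and HSP90 finishes the folding of kinases and receptors. HSF1, the main factor of the heat shock response, binds inverted repeats of the letters GAA ahead of chaperone genes. In the mouse, maternal Hsf1 is needed for early embryo development, and Hsp90aa1 is a known target of it in oocytes. Hspe1 differs from the other genes in that its protein, HSP10, is the lid of the HSP60 chaperonin inside mitochondria, so the name cytosolic does not cover it.

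The promoters that carry this repeat are shown because they group the genes by a feature that expression did not define. The RefSeq promoter table on GRCm38.p6, which covers 250 bases before to 50 after each start, held 10 promoters for 6 of the 10 genes, namely Hsf2, Hsph1, Hspa4, Dnaja1, Dnajb1 and Hspe1. Each was searched for GAANNTTC and TTCNNGAA, which read the same on both strands, and for the longer GAANNTTCNNGAA and TTCNNGAANNTTC, which contain them. Capitals mark the fixed letters of a match in the following sequences.
Hspe1, chr1:55087898-55088197, plus strand: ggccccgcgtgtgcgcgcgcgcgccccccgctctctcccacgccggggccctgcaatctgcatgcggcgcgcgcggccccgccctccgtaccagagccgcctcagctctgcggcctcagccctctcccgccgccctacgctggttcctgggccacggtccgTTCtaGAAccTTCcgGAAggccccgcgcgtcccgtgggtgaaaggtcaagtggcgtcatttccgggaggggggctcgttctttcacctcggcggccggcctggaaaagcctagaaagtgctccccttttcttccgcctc
Hsph1, chr5:149636287-149636586, minus strand: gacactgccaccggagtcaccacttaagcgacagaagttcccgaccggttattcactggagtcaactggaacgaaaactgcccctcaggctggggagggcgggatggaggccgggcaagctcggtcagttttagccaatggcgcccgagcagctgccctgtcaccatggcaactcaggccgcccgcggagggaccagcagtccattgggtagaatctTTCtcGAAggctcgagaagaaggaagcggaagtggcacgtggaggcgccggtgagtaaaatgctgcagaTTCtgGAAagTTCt
Dnaja1, chr4:40722218-40722517, plus strand: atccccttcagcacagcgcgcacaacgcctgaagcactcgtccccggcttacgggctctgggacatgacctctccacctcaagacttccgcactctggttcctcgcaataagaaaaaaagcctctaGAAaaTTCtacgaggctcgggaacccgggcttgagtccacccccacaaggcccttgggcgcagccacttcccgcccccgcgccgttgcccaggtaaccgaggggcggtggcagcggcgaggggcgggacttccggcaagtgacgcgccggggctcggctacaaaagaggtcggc

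A short match was present in 4 of the 10 promoters, against 15.1% of all 32817 promoters in the table, and a long match in 3 of the 10, against 0.603%. Among promoters of the genes compared, the shares were 12.3% and 0.501%. The 4 belong to Hspe1, to Dnaja1 and to a pair of overlapping Hsph1 starts, so they stand for 3 genes. The 3 promoters with a long match are that of Hspe1 and the Hsph1 pair, which share the same site. In Hspe1 the matches overlap into a single run that begins 89 bases before the start. In Hsph1 a short match begins 33 bases before the printed start and a long match lies after it. Dnaja1 had a short match alone, 124 bases before its most upstream start and in none of its other promoters. The promoters of Hsf2, Hspa4 and Dnajb1 held no exact match in this window, and looser forms of the repeat were not searched. Hspd1, the gene of HSP60, is transcribed away from Hspe1 on the opposite strand, and 1 of its promoters covers the same run of repeats.

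Most of these genes were among the abundant transcripts of every column. Hsp90aa1 had the largest value of the 10 in every column, and it exceeded 99.9% of the genes compared in the KO NGO column. Hspa8 and Hsp90ab1 took the next places at NGO. Dnaja1 stood above Hsp90ab1 at FGO in KO and in WT, and level with it at GO in WT. Hsf1 and Hsf2 were lowest of the 10 in every column. Summed over the 10 genes, the FPKM made up 1.12%, 0.842% and 0.535% of the column total in KO at NGO, GO and FGO. In WT they made up 1.18%, 0.876% and 0.529%. The share in KO thus lay close to that in WT at each stage. Hsp90aa1 carries much of it, at 49.97%, 41.4% and 38.3% of the sum in KO and 55.8%, 55.6% and 47.0% in WT.

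**Figure D1:**
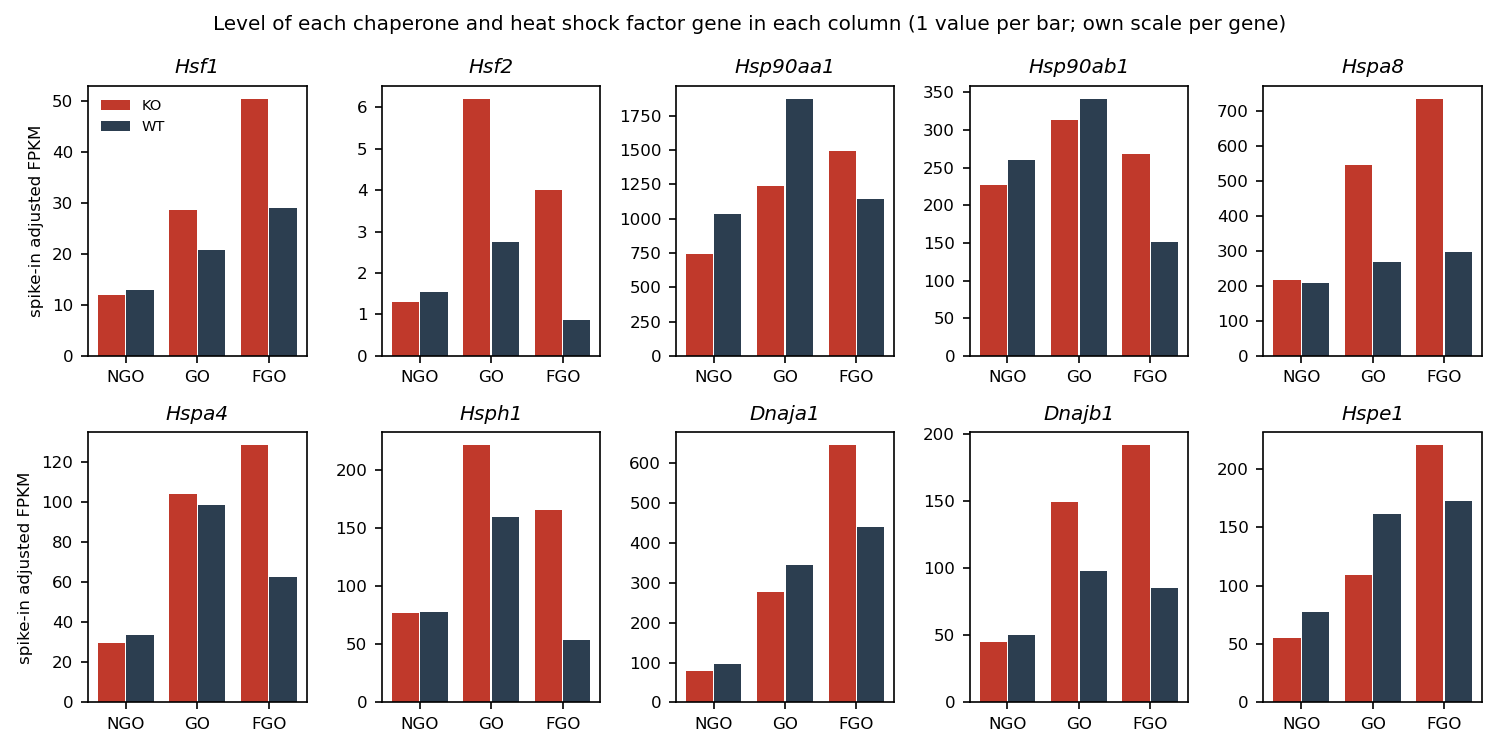
Spike-in adjusted FPKM of the 10 genes (vertical axis, scaled for each gene) in KO (red) and WT (dark) at NGO, GO and FGO, with a single deposited value per bar and no error bars. Hspa8 stood at 545 FPKM in KO and 268 in WT at GO, while Hsp90aa1 at the same stage stood at 1240.4 in KO and 1873 in WT.

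At NGO each of the 10 genes lay within 2-fold in KO and WT, so that 0 were called. Of all genes, 0.0297% were called higher and 0.326% lower, and after rescaling 0.129% and 0.356%. The differences of the 10 genes ran between -0.49 and 0.06 as deposited, and their median was -0.17, against -0.11 for all genes. After rescaling they ran between -0.32 and 0.24. Hspe1 and Hsp90aa1 were at the low end on either scale, and Hspa8 and Hsph1 at the high end.

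At GO the 10 genes spread apart, with differences between -0.59 and 1.02 as deposited and between -0.52 and 1.09 after rescaling. Hspa8 was the only gene of the 10 called, and it was higher in KO on either scale. Of all genes, 0.950% were called higher and 2.03% lower as deposited, and 1.05% and 1.28% after rescaling, so that 1 of 10 is a small number to read against that background. The same 6 genes (Hsf1, Hsf2, Hspa8, Hspa4, Hsph1 and Dnajb1) had the larger value in KO, and the other 4 (Hsp90aa1, Hsp90ab1, Dnaja1 and Hspe1) in WT, as deposited, after rescaling and with equal column totals. The median of the 10 was 0.27 as deposited and 0.34 after rescaling, against -0.09 and -0.03 for all genes.

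At FGO all 10 genes had the larger value in KO as deposited, and Hsf2, Hsph1, Hspa4, Hspa8 and Dnajb1 were called higher. Of all genes 25.8% were called higher and 0.158% lower, so that a large part of the table moved the same way. After rescaling none of the 10 was called on the log2(FPKM + 1) scale, against 1.68% of all genes higher and 0.940% lower. Then 7 of the 10 lay above 0, and Hsp90aa1, Dnaja1 and Hspe1 lay below it. The median of the 10 was 0.93 as deposited, against 0.72 for all genes, and 0.14 after rescaling, against 0.02. Of 20 markers of granulosa cells, 10 reached 1 FPKM in KO FGO and 5 in WT FGO, and their FPKM summed to 83.4 in KO FGO and 38.3 in WT FGO, or 36.9 and 29.3 after rescaling. The oocyte markers summed to 19606 FPKM in KO FGO and 10380 in WT FGO, or 8679 and 7943 after rescaling. Of the 7 granulosa markers compared, Inha and Gja1 were called higher in KO FGO on either scale and the other 5 were not called. Inha, a subunit of inhibin, was at 9.32 FPKM in KO FGO and 1.17 in WT FGO, and Gja1, a gap junction gene, at 6.96 in KO FGO and 0.965 in WT FGO. Amh and Foxl2, which define granulosa cells, stood at 0.282 and 0 FPKM in KO FGO and at 0.0206 and 0.0130 in WT FGO. Esr2, the largest of the 20 granulosa markers at FGO, was at 37.3 FPKM in KO and 21.3 in WT, a difference of 0.02 after rescaling. After rescaling the 20 markers summed to 16.7 in KO and 8.76 in WT at NGO, and to 14.4 in KO and 17.0 in WT at GO. The part of granulosa cells in these values was not tested.

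**Figure D2:**
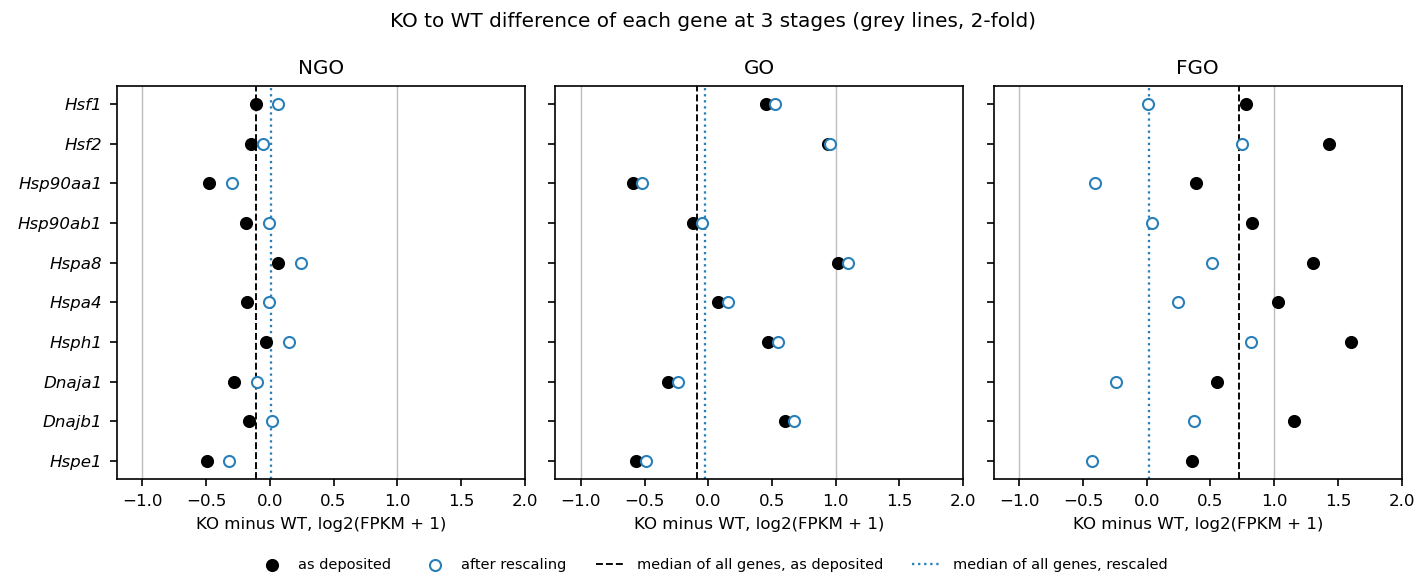
Difference of each gene between KO and WT on the log2(FPKM + 1) scale (horizontal axis) at each stage, as deposited (black) and after rescaling (open blue), with the medians of all genes as broken lines and 2-fold as grey lines. At NGO the points lie close together, between -0.49 and 0.06 as deposited, and at GO they fan out between -0.59 and 1.02, with Hspa8 rightmost.

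Hsf1, which encodes the factor that drives chaperone genes under heat, had values close to each other at NGO. In KO it was at 11.9, 28.8 and 50.5 FPKM at NGO, GO and FGO. The WT values were 12.9, 20.7 and 29.0 FPKM. As deposited the values ran upward from NGO to FGO in KO and in WT, but after rescaling they were 26.4, 23.5 and 22.4 in KO and 25.2, 16.1 and 22.2 in WT. KO had the larger value at GO and FGO as deposited. The difference at GO was 0.46 as deposited and 0.52 after rescaling, larger than in 89.3% and 90.2% of genes. At FGO it was 0.78 as deposited and 0.01 after rescaling, so that at this stage Hsf1 differed by about as much as the median gene. None of these passed 2-fold.

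Hsf2, a relative of Hsf1 with known roles in meiosis and brain development, was a low transcript in every column. It was at 1.30, 6.20 and 4.00 FPKM in KO at NGO, GO and FGO. WT oocytes had 1.55, 2.75 and 0.856 FPKM. As deposited the NGO values lay below KO FGO and above WT FGO, but after rescaling KO FGO and WT FGO, at 1.77 and 0.655, were both below NGO, at 2.87 in KO and 3.01 in WT. The difference at GO was 0.94 as deposited and 0.95 after rescaling, larger than in 98.8% and 98.5% of genes but under 2-fold on this scale. At FGO it was 1.43 as deposited and 0.74 after rescaling. A low value weighs on the log scale, and with a pseudocount of 0.1 the GO difference passed 2-fold, at 1.14. Without a pseudocount, the rescaled KO value was 2.37 times the WT value at GO and 2.71 times at FGO.

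Hsp90aa1 encodes the stress-inducible HSP90 and Hsp90ab1 the constitutive form. Hsp90aa1 was at 742, 1240.4 and 1497 FPKM in KO at NGO, GO and FGO. In WT it was at 1034, 1873 and 1147 FPKM. As deposited the highest value was at FGO in KO and at GO in WT. After rescaling it was at NGO in KO and in WT, with 1639, 1014 and 663 in KO and 2013, 1452.5 and 877 in WT. Its difference was -0.48, -0.59 and 0.38 as deposited and -0.30, -0.52 and -0.40 after rescaling, none of them at 2-fold. After rescaling, 13.4%, 11.8% and 14.4% of genes at NGO, GO and FGO had a smaller difference.

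Hsp90ab1 followed another course. It was at 228, 313 and 267 FPKM in KO at NGO, GO and FGO. The WT values were 259.8, 341 and 151 FPKM. After rescaling its differences were -0.01, -0.05 and 0.04, so that it stayed with the median gene at each stage. The ratio of Hsp90aa1 to Hsp90ab1 within a column does not depend on a factor shared by all genes of that column. It was 3.26, 3.96 and 5.60 in KO and 3.98, 5.49 and 7.61 in WT, smaller in KO at each stage and growing from NGO to FGO in KO and in WT.

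Hspa8 encodes HSC70, the HSP70 that cells make at all times for folding and for uncoating clathrin vesicles. It was at 218, 545 and 734 FPKM in KO at NGO, GO and FGO. WT oocytes had 209, 268 and 297 FPKM. The NGO values were close, and at the later stages KO held at least 2.03 times the WT value as deposited. The difference was 0.06, 1.02 and 1.30 as deposited. After rescaling it was 0.24, 1.09 and 0.52, and the GO value ranked 70 from the top among the 10110 genes. Hspa8 made up 14.7%, 18.2% and 18.8% of the summed FPKM of the 10 genes in KO and 11.3%, 7.97% and 12.2% in WT.

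The HSP110 genes encode large relatives of HSP70 that serve as its exchange factors. Hsph1 was at 76.7, 221 and 166 FPKM in KO at NGO, GO and FGO. In WT it was at 78.1, 159 and 53.8 FPKM. The NGO values lay close together, and WT FGO was the lowest of the 6 columns. The difference was -0.03, 0.47 and 1.60 as deposited and 0.15, 0.55 and 0.82 after rescaling. At FGO it exceeded that of 96.9% of genes as deposited and 96.5% after rescaling.

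Hspa4 was at 29.7, 104 and 128 FPKM in KO at NGO, GO and FGO. The WT values were 33.9, 98.7 and 62.5 FPKM. After rescaling it was at 65.7, 85.3 and 56.9 in KO and 66.0, 76.6 and 47.8 in WT, highest at GO in KO and in WT, while as deposited KO was highest at FGO. The difference was -0.18, 0.08 and 1.03 as deposited and -0.01, 0.15 and 0.25 after rescaling, so that its call at FGO was lost on the second scale.

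The J-domain genes Dnaja1 and Dnajb1, whose proteins hand clients to HSP70 and start its ATP hydrolysis, went separate ways. Dnaja1 was at 78.3, 277 and 645 FPKM in KO at NGO, GO and FGO. WT oocytes had 95.5, 344 and 441 FPKM. Its difference was -0.28, -0.31 and 0.55 as deposited and -0.10, -0.24 and -0.24 after rescaling. Smu1, on the opposite strand, overlaps the Dnaja1 gene in GENCODE M21, and reads of overlapping parts cannot be told apart unless strand was used. The sources used here do not say whether it was.

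Dnajb1, the HSP40 most closely tied to heat shock, was at 45.1, 149 and 192 FPKM in KO at NGO, GO and FGO. In WT it was at 50.6, 98.4 and 85.5 FPKM. KO was above WT at GO and FGO and below it at NGO as deposited. Its difference was -0.16, 0.60 and 1.16 as deposited and 0.02, 0.67 and 0.37 after rescaling. The ratio of Dnajb1 to Dnaja1 within a column was 0.576, 0.540 and 0.298 in KO and 0.530, 0.286 and 0.194 in WT, with the widest gap at GO.

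Hspe1, whose protein closes the HSP60 chamber, was at 54.9, 109 and 219.9 FPKM in KO at NGO, GO and FGO. The WT values were 77.7, 161 and 172 FPKM. Hspd1, which encodes HSP60, was at 57.8, 128 and 184 FPKM in KO and at 45.8, 98.0 and 74.8 FPKM in WT at the same stages. The pair thus went opposite ways at NGO and GO, with Hspe1 larger in WT and Hspd1 larger in KO. The difference of Hspe1 was -0.49, -0.57 and 0.35 as deposited and -0.32, -0.49 and -0.43 after rescaling. That of Hspd1 was 0.33, 0.38 and 1.28 as deposited and 0.51, 0.45 and 0.50 after rescaling.

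Within a column, the ratio of Hspe1 to Hspd1 was 0.949, 0.851 and 1.20 in KO and 1.70, 1.65 and 2.30 in WT. The KO ratio was therefore 0.559, 0.517 and 0.521 of the WT ratio at NGO, GO and FGO, nearly the same at each stage. The genes overlap at their 5′ ends, at 55088132 to 55091307 for Hspe1 and 55077835 to 55088243 for Hspd1 on chromosome 1 (GRCm38, GENCODE M21). The longest coding transcript of Hspe1 has 774 nt and that of Hspd1 2423 nt. Among all genes, 609 had a longest coding transcript no longer than 1000 nt, and their median differences were -0.35, -0.49 and 0.35 as deposited and -0.23, -0.41 and -0.37 after rescaling. The part of transcript length in the Hspe1 values was not tested.

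**Figure D3:**
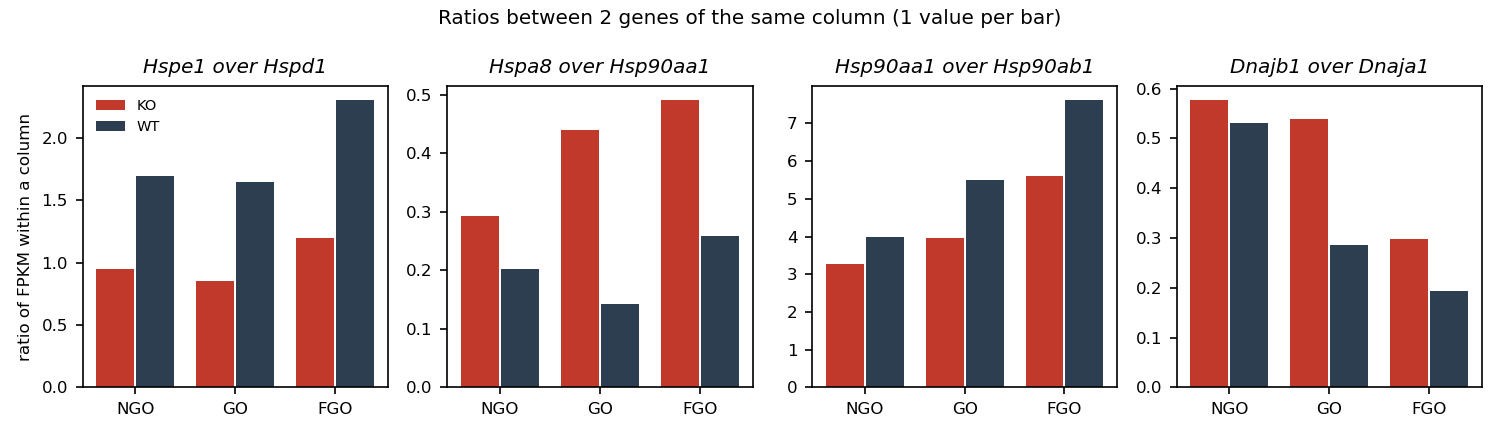
Ratio of FPKM between genes of the same column (vertical axis) in KO (red) and WT (dark) at each stage, for pairs chosen after their values were seen, with no error bars. The ratio of Hspe1 to Hspd1 was 0.851 in KO and 1.65 in WT at GO, and that of Hspa8 to Hsp90aa1 was 0.440 in KO and 0.143 in WT.

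The balance of Hspa8 to Hsp90aa1 transcripts also differed between the KO and WT columns at each stage. The ratio of Hspa8 to Hsp90aa1 was 0.293, 0.440 and 0.491 in KO at NGO, GO and FGO. In WT it was 0.202, 0.143 and 0.259. The KO ratio was 1.45, 3.07 and 1.90 times the WT ratio, so the gap was widest at GO. The ratio of Hsf1 to Hsf2 was 9.19, 4.64 and 12.6 in KO and 8.37, 7.52 and 33.9 in WT, but it rests on the low values of Hsf2. A ratio shows that genes of a pair differed unequally and does not show which of them stayed level.

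The question of the stage comparisons is how each gene went through growth within a genotype. Within KO, 7 of the 10 genes were called higher at GO than at NGO, against 57.6% of all genes, and 0 were lower, against 0.0890%. Those 7 were Hsf1, Hsf2, Hsph1, Hspa4, Hspa8, Dnaja1 and Dnajb1. Within WT, Hsph1, Hspa4, Dnaja1 and Hspe1 were called higher at GO, which is 4 of 10 against 54.8% of all genes, and 0 lower, against 0.129%. After rescaling 0 were called in either genotype, while 5.37% of all genes were higher and 2.59% lower within KO and 6.06% and 3.27% within WT. The median of the 10 after rescaling was -0.01 within KO and -0.36 within WT, against -0.02 and -0.01 for all genes. Hspa8 had 0.36 within WT as deposited, with 9.12% of genes below it, and 1.32 within KO, with 66.3% below it. These steps share their columns with the KO to WT comparisons and are not separate evidence.

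From GO to FGO, 2 of the 10 genes, Dnaja1 and Hspe1, were called higher within KO as deposited, against 39.0% of all genes, and 0 lower, against 0.514%. After rescaling the same step had 0 higher, against 6.42%, and 3 lower, against 3.66%, namely Hsf2, Hsph1 and Hsp90ab1. Within WT those 3 genes were called lower as deposited, against 9.22% of all genes, and 0 higher, against 6.50%. After rescaling Hsph1 and Hsp90ab1 remained called lower within WT, against 8.33% lower and 5.78% higher of all genes. For Hsp90aa1, Hspa4 and Dnajb1 the step pointed up in KO and down in WT as deposited, at 0.27 and -0.71, 0.30 and -0.65, and 0.36 and -0.20. After rescaling it pointed down in KO and in WT for these 3 genes.

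Between NGO and GO, the KO to WT difference shifted most for Hsf2 and Hspa8 among the 10. The shift was 1.09 for Hsf2, 0.96 for Hspa8 and 0.76 for Dnajb1 as deposited, and 1.01, 0.85 and 0.66 after rescaling. For all genes the median shift was 0.05 as deposited, and -0.02 on the rescaled values. From GO to FGO, Hspa8 and Hsf1 shifted by 0.28 and 0.32 as deposited, less than the median of 0.80, and by -0.58 and -0.51 after rescaling. Hsph1 shifted by 1.13 and, after rescaling, by 0.27. The excess of Hspa8 in KO over the median gene was thus largest at GO, and that of Hsph1 at FGO.

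Another 88 genes of the folding machinery were listed, and 72 of them had a mean of at least 1 FPKM. At NGO 0 of the 72 were called in either direction, against 0.0297% of all genes higher and 0.326% lower as deposited. At GO 0 were higher and 3 lower in KO as deposited (Dnajc21, Fkbp5 and Sirt1), against 0.950% and 2.03%. After rescaling 1 was lower (Fkbp5), against 1.28%. At FGO 25 were higher and 0 lower as deposited, against 25.8% and 0.158% of all genes. After rescaling 3 were higher and 3 lower, against 1.68% and 0.940%. Their medians after rescaling were 0.07, 0.09 and 0.10, close to the medians of all genes.

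**Figure D4:**
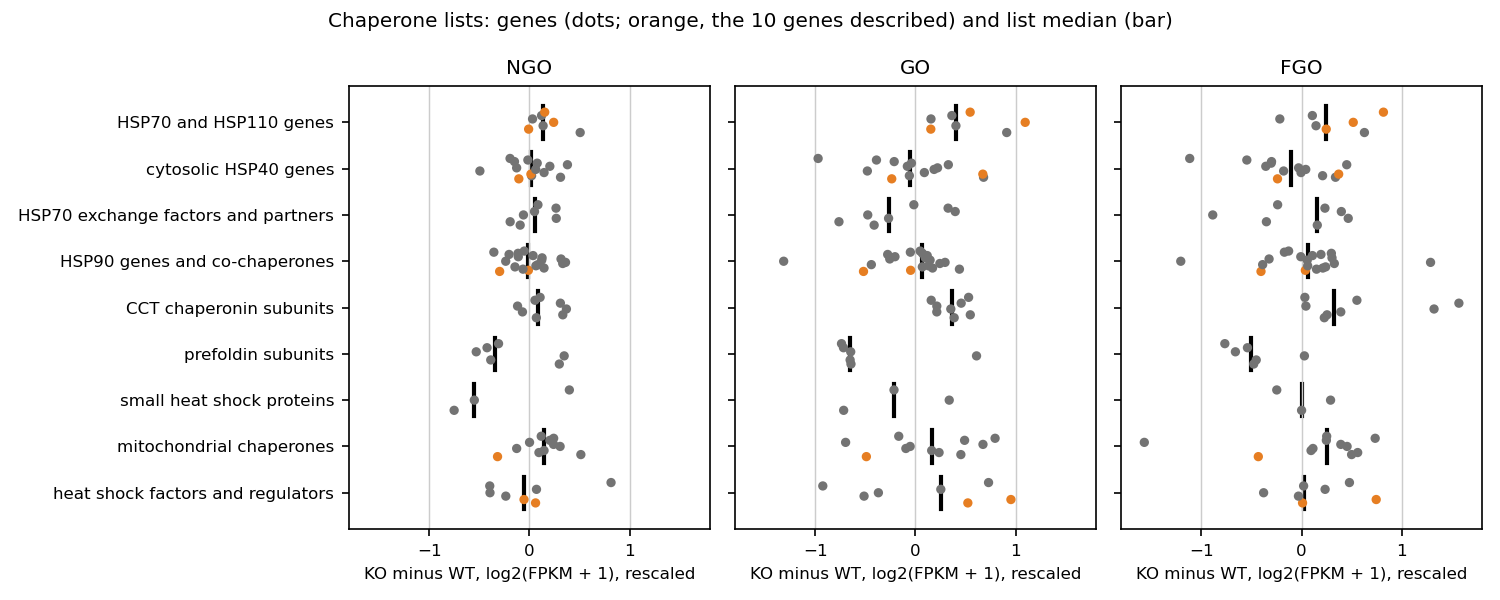
Rescaled difference between KO and WT on the log2(FPKM + 1) scale (horizontal axis) for the compared genes of 9 chaperone lists, with list medians as black bars and the 10 genes described in orange. At GO the 8 chaperonin subunits lie right of 0 and 5 of the 6 prefoldin subunits left of it.

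The HSP70 and HSP110 list had 7 of 11 genes compared, and all 7 had the larger value in KO at GO, with a median of 0.40 after rescaling against -0.03 for all genes. Besides Hspa8, Hspa2, an HSP70 gene best known from spermatocytes, was at 6.33 FPKM in KO and 2.95 in WT at GO, a difference of 0.89. It was at 5.71 FPKM in KO and 1.68 in WT at FGO. A few genes known for strong induction by heat were singled out after their low values were seen. Hspa1a was at 0.0832, 0.448 and 1.29 FPKM in KO and 0.223, 0.483 and 0.665 in WT, and Hspa1b and the co-chaperone gene Bag3 reached at most 0.246 and 0.0793 FPKM in any column.

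Among HSP40 genes, 14 of 16 were compared, and the list had rescaled medians of 0.02, -0.05 and -0.10 from NGO to FGO. Dnajc21, a ribosome assembly factor, was lower in KO at GO, at 58.3 FPKM in KO and 122 in WT, a difference of -1.05 as deposited and -0.97 after rescaling. At FGO it was at 125 FPKM in KO and 158 in WT, a difference of -0.34 and, after rescaling, -1.12, which made it lower there on the second scale alone. Dnaja2, a close relative of Dnaja1, was at 63.7 FPKM in KO and 41.4 in WT at GO. Dnajc9, a histone co-chaperone gene, was at 49.2 FPKM in KO and 42.2 in WT at FGO, a difference of -0.55 after rescaling. The 7 compared genes of HSP70 exchange factors and partners had rescaled medians of 0.05, -0.27 and 0.16. In that list Bag4 was at 17.1 FPKM in KO and 31.5 in WT at GO, and Bag6 at 9.57 in KO and 11.3 in WT at FGO. Bag5 went the other way at FGO, with a difference of 1.20 as deposited and 0.47 after rescaling. So did St13 at NGO, with 0.09 and 0.27. At FGO 3 of the 7 were called higher as deposited, against 25.8% of all genes, and 0 after rescaling, against 1.68%.

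The HSP90 genes and co-chaperones had 19 of 20 genes compared, with rescaled medians of -0.01, 0.07 and 0.06. The immunophilin genes Fkbp4 and Fkbp5, which compete on HSP90 bound to steroid receptors, stood at opposite ends. Fkbp4 was at 24.4 FPKM in KO and 5.02 in WT at FGO, a difference of 2.08 as deposited and 1.29 after rescaling. Fkbp5 was at 18.9 FPKM in KO and 51.6 in WT at GO, a difference of -1.40 and, after rescaling, -1.31. At FGO Fkbp5 was at 79.4 FPKM in KO and 108 in WT, a difference of -0.43 and, after rescaling, -1.21.

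The cytosolic chaperonin CCT, which folds actin and tubulin, had all 8 subunit genes compared. At GO all 8 had the larger value in KO, with a rescaled median of 0.37. On either scale 0 were called there, against 1.05% of all genes higher and 1.28% lower after rescaling. Cct2 was at 225 FPKM in KO and 162 in WT at GO. At FGO 6 of the 8 were called higher as deposited and 2 after rescaling, Cct6a and Cct4, against 25.8% and 1.68% of all genes. Cct6a was at 27.0 FPKM in KO and 4.39 in WT, and Cct4 at 78.1 in KO and 17.3 in WT. The rescaled median of the list at FGO was 0.32.

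Prefoldin passes actin and tubulin to CCT. Its 6 genes had rescaled medians of -0.35, -0.65 and -0.51 at NGO, GO and FGO, with 0 called at any of them. Of all genes after rescaling, 0.129%, 1.05% and 1.68% were called higher at these stages and 0.356%, 1.28% and 0.940% lower. As deposited the medians of the 6 genes were -0.51, -0.74 and 0.19, and all 6 had the larger value in KO at FGO. Pfdn6 was at 79.7 FPKM in KO and 141 in WT at GO, and Pfdn4 at 207 in KO and 339 in WT at NGO. Vbp1, singled out after its values were seen, was apart from the other 5, at 83.0 FPKM in KO and 56.9 in WT at GO. The longest coding transcript had 1595 nt for Vbp1 and between 807 and 1735 nt for the others, against a median of 2973 nt for all genes compared. The part of length here too was not tested.

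In the mitochondrial list all 11 genes were compared, with rescaled medians of 0.15, 0.16 and 0.25. Lonp1, a matrix protease gene, was at 28.3 FPKM in KO and 9.33 in WT at FGO, and Dnaja3 at 71.7 in KO and 46.9 in WT at GO. Dnajc19, of the import motor, was at 7.54 FPKM in KO and 15.5 in WT at FGO, a difference of -0.95 and, after rescaling, -1.57. Of 9 small heat shock protein genes, 3 were compared, and Hspb1, the most abundant, was at 4.09 FPKM in KO and 8.15 in WT at NGO. At GO Hspb1 was at 23.6 FPKM in KO and 41.8 in WT. At FGO it was at 32.1 FPKM in KO and 18.6 in WT, a difference of 0.76 and, after rescaling, 5.8e-05. Hspb6 was at 6.98 FPKM in KO and 3.07 in WT at FGO. As deposited, 1 of the 3 had the larger value in KO at NGO, 1 at GO and 3 at FGO. The 7 compared factors and regulators had rescaled medians of -0.05, 0.25 and 0.02. Among them Sirt1, which deacetylates HSF1, was at 10.6 FPKM in KO and 22.4 in WT at GO. Hdac6, a cytoplasmic deacetylase, was at 5.87 FPKM in KO and 3.56 in WT at NGO, and Hsbp1, an HSF1-binding inhibitor, at 4.60 in KO and 7.01 in WT.

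The genes closest to Hsph1 and Hsf1 over the 6 columns were sought among 6356 genes, by Euclidean distance of rescaled log2(FPKM + 1) values centred on each gene's mean. Closest to Hsph1 were Zfp64, Hdhd5, Skiv2l, Zfp715 and Ppp4r1, at distances of 0.18 to 0.30 against a median of 2.05. Zfp64 was at 8.51, 21.5 and 16.6 FPKM in KO and 7.91, 16.1 and 4.24 in WT at NGO, GO and FGO. Closest to Hsf1 were Tdrd3, Mkrn2, Tmem184c, Rsrc1 and Prpf8, at 0.08 to 0.12 against a median of 0.96. Tdrd3, a scaffold of topoisomerase 3-beta, was at 32.6, 73.8 and 135 FPKM in KO and 33.7, 57.0 and 78.4 in WT. Of the other heat shock genes, 8 were in each search, which left out Hsf2 for its low mean, and 0 of them were among these nearest genes. Of those searched, Hsp90ab1 was the nearest to Hsph1, at 1.11, and Dnajb1 to Hsf1, at 0.63.

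GENCODE M21 holds near-identical transcripts of other genes for 3 of the 10, matching 50% or more of the longest coding transcript with an identity of 95% or above. There were 6 for Hspa8, 2 for Hsp90aa1 and 1 for Hspe1, mostly processed pseudogenes, and 0 for the other 7. The copy of Hspe1 is annotated as protein-coding. For each of these 3 genes, 0 of the copies had values of their own among the deposited ones. Reads of these 3 genes may have been shared with such copies, so their levels are uncertain to that extent. Hspa8 lies on chromosome 9 at 40800984 to 40810087 and Hsp90aa1 on chromosome 12 at 110690605 to 110702728 (GRCm38). Hsph1 lies on chromosome 5 at 149614287 to 149636376.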

How the data were processed

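Polyadenylated RNA was measured by Smart-seq2 in 12 samples of 10 oocytes, read as 150 bp pairs from 500 pg of cDNA, per the labels' protocols. Per the submitters' processing notes, the tools were HISAT2 2.2.1, Cufflinks 2.2.1 and Trim Galore 0.6.7, and the build mm10. The authors deposited FPKM values adjusted to the spike-in, as the table is named. The sources used here do not give the formula, the annotation or whether a column is a mean, a pool or 1 sample.

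Of its 25912 lines, 2 with an error mark were left out. Of 333 symbols on several lines the line of largest mean was kept. Differences were taken on log2(FPKM + 1), called at 2-fold, for genes averaging 1 FPKM or more. Moderated tests had been planned should the table hold a column per sample. It does not, so none was run. The 10 genes, the lists and the gene pairs were chosen with earlier results of these data known. Besides the 10 genes, the text names from each list and stage up to 2 genes of largest rescaled difference that reached 5 FPKM in either genotype, and the 5 genes nearest to Hsph1 and Hsf1 among those averaging 5 FPKM or more, predicted-gene symbols left out. Amh, Foxl2, Inha, Gja1, Esr2, Smu1, Hspa1a, Hspa1b, Bag3 and Vbp1 fall outside this rule and were named after their values were seen. The rescaling and the 2-fold call were tested on simulated data with a factor on a whole column and few changed genes. The promoter, length, nearest-gene and copy searches were not tested in this way. Lengths, positions and copies came from GENCODE M21 and blastn 2.17.0, promoters from RefSeq. Python 3.11.15, numpy 2.4.6 and pandas 2.3.3 were used.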

Additional observations from a re-analysis of the deposited data

Results flagged for a closer look

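For 2 of the 10 genes the KO to WT difference pointed opposite ways at different stages on every column scaling tried (as deposited, rescaled by median ratios, equal column totals). With a single column per group this was not tested. Hsf2 had a log2 difference of 0.94 at GO and 1.43 at FGO, against -0.15 at NGO, and after rescaling 0.95, 0.74 and -0.05. With equal column totals it had 1.03, 0.85 and -0.0039, so that its sign at NGO rests on a value close to 0. Hsp90ab1 had 0.82 at FGO, against -0.12 at GO, but after rescaling 0.04 and -0.05, which both lie close to 0. With equal column totals Hsp90ab1 had 0.16 and -0.01.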

How the results depend on the processing

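Of the 10 genes, the number called 2-fold different between KO and WT stayed at 0 at NGO under each alternative (a pseudocount of 0.1, no filter or a mean of 5 FPKM or more, median-ratio scaling, equal column totals). At GO it was 1 in the main setting and 2 with a pseudocount of 0.1 or equal column totals, with Hsf2 added to Hspa8. At FGO it was 5 in the main setting and 0 with median-ratio scaling or equal column totals. For GO over NGO it was 7 within KO and 4 within WT, and 0 within either genotype under those same scalings. For FGO over GO within KO, 2 genes higher became 3 genes lower under both scalings, which take out a change shared by the whole column. No called difference of the 10 genes changed sign between KO and WT. With the mean of 5 FPKM or more Hsf2 drops out, leaving 9 genes. Over all genes at GO, the called share was 2.10% higher and 4.53% lower with a pseudocount of 0.1, against 0.950% and 2.03% in the main setting, and at NGO it was 0.475% and 2.22%, against 0.0297% and 0.326%. With equal column totals it was 0.247% and 0.386% at NGO, 1.54% and 1.33% at GO, and 2.57% and 0.603% at FGO. For GO over NGO those totals gave 5.93% and 3.03% within KO and 6.94% and 3.27% within WT. For FGO over GO within KO they gave 5.50% and 6.32%. No paired analysis was possible because the table holds 1 column per group without replicate numbers, and leaving out a replicate could not be run for the same reason. Read depth is unknown, so the error of low values such as those of Hsf2 is unknown too.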
